A study of Homo sapiens with 8 samples.

Results

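The genes described here are 34 genes of T cell receptor signalling and T cell identity, named as a list, with no threshold on their values in these arrays. Of the 34, 32 had a row in the deposited table, 1 probe set each, out of 17709 rows with exactly 1 gene symbol. GRAP2 and TCF7 were not analysed here. The list holds 4 receptor chains, 9 coreceptors and surface receptors, 13 kinases, adaptors, enzymes and phosphatases, and 8 transcription factors. They were measured in MT-2, a T cell line infected with the human T-lymphotropic virus HTLV-1, and in MT-1, a line from adult T cell leukaemia (ATL), the malignancy that this virus causes.

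MT-2 cells received 100 nM OR21, a DNA demethylating agent, 500 nM EPZ-6438 (tazemetostat), which blocks EZH2, the enzyme that methylates histone H3 in Polycomb silencing, both at these doses, or neither. MT-1 cells received 500 nM OR21, 2500 nM EPZ-6438, both, or neither. Exposure lasted 96 h, with each compound given at seeding and again at 48 h, and the labels describe the untreated cells only as control. All groups were grown in RPMI-1640 with fetal bovine serum. Each of the 8 groups is 1 array of 1 culture, so a difference within a line has no replicate error, and each line stands for itself alone. The doses differ between the lines by design, so a difference in response between them cannot be told apart from a difference in dose.

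The T cell receptor recognises a peptide on an HLA molecule and passes the signal through the CD3 chains and the zeta chain (CD247), whose tails carry tyrosine motifs. The kinase LCK, held by CD4 or CD8, phosphorylates these tails. ZAP70 then docks there and phosphorylates the scaffold LAT and the adaptor LCP2 (SLP-76), which gather PLCG1, VAV1 and further enzymes, while CD28 adds the costimulatory signal. Transcription factors such as GATA3, RUNX3, LEF1, TOX, ETS1 and IKZF1 set and keep the T cell programme. T cell lines carrying HTLV-1 are known to lose CD3 chains and LCK in culture.

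Since OR21 acts on DNA methylation, which in human cells sits mostly on the base pair CG, the stretch around the start of 4 members is shown. These are the members with the largest measured differences in MT-1 cells given both agents: CD28 and CD247, which were lower, and LAT and LEF1, which were higher. Each window runs from 250 bases before to 50 bases after a gene start (RefSeq, GRCh38.p14), and CG is in capitals.
CD28, chr2:203706389-203706688, plus strand: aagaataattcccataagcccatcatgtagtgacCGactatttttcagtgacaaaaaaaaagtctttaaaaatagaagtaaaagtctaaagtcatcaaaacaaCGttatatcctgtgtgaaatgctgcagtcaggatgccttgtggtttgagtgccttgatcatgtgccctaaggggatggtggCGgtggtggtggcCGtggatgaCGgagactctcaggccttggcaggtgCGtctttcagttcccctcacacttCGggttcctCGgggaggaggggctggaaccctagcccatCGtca
CD247, chr1:167518480-167518779, minus strand: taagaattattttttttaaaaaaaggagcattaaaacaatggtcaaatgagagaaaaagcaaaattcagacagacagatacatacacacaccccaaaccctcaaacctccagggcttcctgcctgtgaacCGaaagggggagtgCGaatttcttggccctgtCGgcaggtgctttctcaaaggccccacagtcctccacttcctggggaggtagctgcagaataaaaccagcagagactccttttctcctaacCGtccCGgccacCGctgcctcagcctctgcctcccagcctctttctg
LAT, chr16:28984553-28984852, plus strand: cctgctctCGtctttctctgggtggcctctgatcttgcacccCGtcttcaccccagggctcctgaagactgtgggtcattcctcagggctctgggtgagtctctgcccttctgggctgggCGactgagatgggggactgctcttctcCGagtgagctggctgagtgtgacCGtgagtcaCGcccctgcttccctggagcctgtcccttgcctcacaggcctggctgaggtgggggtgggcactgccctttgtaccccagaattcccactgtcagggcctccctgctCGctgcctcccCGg
LEF1, chr4:108166252-108166551, minus strand: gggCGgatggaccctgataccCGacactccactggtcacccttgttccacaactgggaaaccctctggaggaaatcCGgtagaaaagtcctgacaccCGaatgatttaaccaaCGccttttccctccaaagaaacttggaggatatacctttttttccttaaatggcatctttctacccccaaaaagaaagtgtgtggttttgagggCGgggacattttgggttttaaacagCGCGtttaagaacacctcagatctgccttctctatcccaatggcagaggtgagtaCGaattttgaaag

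The windows of CD28 and LEF1 held 9 CG each, that of CD247 6, and that of LAT shown here 8, while a second LAT window held 18. RUNX3 and IKZF1, which also differed by 1 or more in these cells, had windows with 15 and 38 CG (RUNX3) and with 35, 3 and 0 CG (IKZF1). The letters CG, which read the same on both strands, occurred at least once in 96% of all 35116 windows of this length, with a median of 14 per window. RefSeq windows matched 23 of the 32 measured members, with windows on chromosome 8 left out of the matching. TOX, which lies on that chromosome, is therefore not among them. Taking for each gene its window with the most CG, the 8 members that stood above background on no array had a median of 4 (2 to 25). The 15 others had a median of 12 (1 to 55). These counts are a description, with no test, and methylation itself was not measured on these arrays.

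All levels below are log2 values as deposited, and differences are in log2 units, where 1 is a doubling. The background of an array is the 95th percentile of its 612 negative control probe sets and lay between 7.19 and 7.80. Where only 1 of the levels compared stood above background, the difference is counted from the background of the other array and given as "at least" or "or lower". Where neither did, no difference is given. Probe sets differ in how brightly they report, so levels are compared along 1 gene and never between genes. Over the 8 arrays, medians lay between 6.44 and 6.68 and between 8126 and 9718 of 21448 transcript probe sets stood above background. Fewer cells that express a gene and less RNA per cell cannot be told apart in such bulk samples.

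Both lines expressed only part of the T cell apparatus. Of the 32 members measured, 22 stood above background on at least 1 array, 10 of them on all 8 arrays, and 10 on none. In MT-2 cells 18 members stood above background under at least 1 treatment and in MT-1 cells 19. The 10 that never did were the CD3 chains CD3D, CD3E and CD3G, the coreceptor CD8A, the adhesion receptor CD2, the receptors CTLA4 and ICOS, the kinase LCK, the phosphatase PTPN22 and THEMIS, which thymocytes need for selection. Their levels ran from 2.87 to 6.68. LCK, the kinase at the top of the cascade, lay between 3.67 and 3.79 in MT-2 and between 3.93 and 6.29 in MT-1. CD3D lay between 5.17 and 6.18 in MT-2 and between 5.31 and 5.63 in MT-1. The defining CD3 chains of a T cell were thus not above background in either line, while CD5, CD247, ZAP70 and the transcription factors IKZF1, ETS1, RUNX1, RUNX3 and LEF1 were above it on all 8 arrays.

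**Figure D1:**
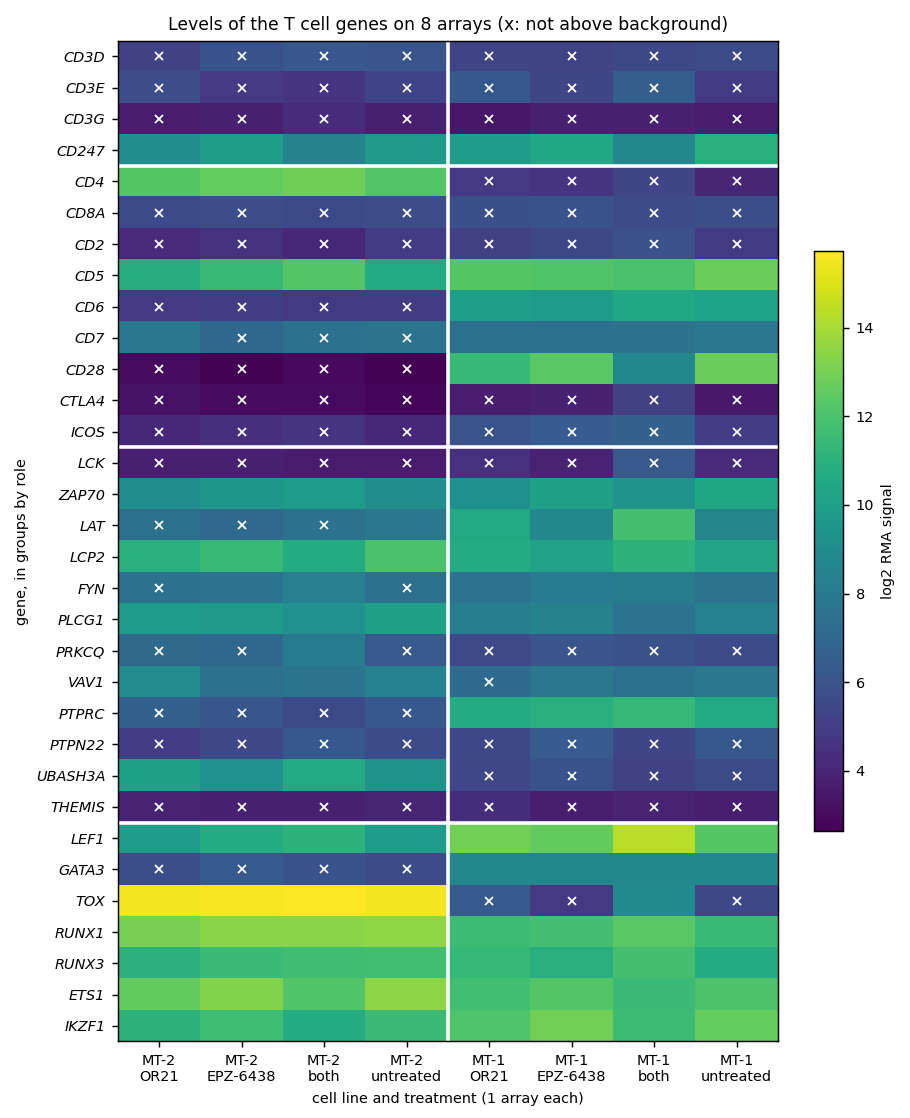
Level of each of the 32 measured members (rows, grouped by role) on the 8 arrays (columns, 1 array each), with colour for the log2 RMA signal and a white cross where the level is not above the background of its array. Rows are read along, not against each other; the 10 members crossed on all 8 arrays include CD3D, CD3E, CD3G and LCK.

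The first comparison sets the untreated lines against each other. MT-2 cells carried CD4 and the exhaustion-linked factor TOX, which untreated MT-1 cells did not show above background, and MT-1 cells carried CD28, CD6, PTPRC and GATA3, which MT-2 cells did not. Counting levels under background at their bound, 8 members were higher by 1 or more in untreated MT-2 and 8 were lower, against 9.08% and 19.4% of all 12942 probe sets tested. As deposited, 17 of the 24 members that passed the filter on low values differed by 1 or more either way, against 42.9% of all. A member expressed in 1 line only passed that filter through this line and so had to differ, and the 17 support nothing on their own. The median difference was -0.24 over these 24 members and -0.29 over all probe sets.

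The line difference could be tested over the 4 treatments, with 4 arrays a line. limma (cell line and treatment fitted to all 8 arrays, Benjamini-Hochberg adjusted p under 0.05) called 7 of 24 members higher in MT-2, against 22.7% of all probe sets, and 9 lower, against 40.7%. At an unadjusted p under 0.05 it had 17 of 24 members, against 67.8% of all. These shares of members lie near those of all probe sets. Of the 16 members called, 6 were above background on all 8 arrays and 10 were not. For these 10 the test rests on levels that were not measured above background, so they are given below by their levels and bounds, with no estimate or p. The arrays of a line are cultures of 1 line, so these p-values measure the spread over treatments of these lines and say nothing on other lines. Estimates in the following paragraphs are from this fit, as MT-2 minus MT-1 with the standard error (SE).

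Among the receptor chains, CD247, the zeta chain that ZAP70 binds, was the only one above background. In MT-2 cells CD247 stood at 9.12 with OR21, 9.92 with EPZ-6438 and 8.48 with both, against 9.74 untreated. In MT-1 cells CD247 stood at 9.80 with OR21, 10.46 with EPZ-6438 and 8.72 with both, against 10.89 untreated. The ranges of the lines overlapped, and under each treatment MT-2 was the lower one (-0.65 ± 0.18 SE, limma adjusted p = 0.0211). That estimate is from values as deposited, and the untreated difference moved from -1.15 to -0.65 with cyclic loess.

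CD4, the coreceptor of helper T cells, separated the lines completely. In MT-2 cells CD4 stood at 12.28 with OR21, 12.63 with EPZ-6438 and 12.82 with both, against 12.23 untreated. In MT-1 cells CD4 stood at 4.80 with OR21, 4.60 with EPZ-6438 and 5.37 with both, against 4.07 untreated, never above background, so that the untreated difference was at least 4.77. The costimulatory receptor CD28 showed the opposite picture. In MT-1 cells CD28 stood at 11.42 with OR21, 12.36 with EPZ-6438 and 8.72 with both, against 12.80 untreated. In MT-2 cells CD28 stood at 3.02 with OR21, 2.65 with EPZ-6438 and 2.97 with both, against 2.64 untreated, under background on all 4 arrays, and the untreated difference was -4.99 or lower.

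CD5 and CD6 are neighbouring genes for related scavenger-type receptors that dampen T cell receptor signals, and only CD5 was above background in both lines. CD5 stood in MT-2 cells at 10.78 with OR21, 11.44 with EPZ-6438 and 12.22 with both, against 10.64 untreated. CD5 stood in MT-1 cells at 12.29 with OR21, 12.17 with EPZ-6438 and 11.97 with both, against 12.76 untreated. The ranges overlapped, with MT-2 lower on 3 of 4 treatments (-1.03 ± 0.38 SE, limma adjusted p = 0.0526). CD6 stood in MT-2 cells at 4.81 with OR21, 5.08 with EPZ-6438 and 4.88 with both, against 4.96 untreated, with no array above background. In MT-1 cells CD6 stood at 10.05 with OR21, 9.83 with EPZ-6438 and 10.47 with both, against 10.24 untreated, and the untreated difference was -2.44 or lower. CD7, an early T cell surface protein, lay close to background in both lines, between 7.03 and 7.82 in MT-2 and between 7.42 and 7.87 in MT-1.

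CD28, CTLA4 and ICOS, related costimulatory receptors, follow each other on chromosome 2 with no protein-coding gene between them in RefSeq. Only CD28, and only in MT-1, was above background. ICOS reached 6.68 in MT-1 cells given both agents, under the background of 7.19, and lay between 4.11 and 4.63 in MT-2. CTLA4 lay between 2.87 and 3.26 in MT-2 and between 3.54 and 5.14 in MT-1.

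In the signalling cascade, ZAP70, which docks on the zeta chain, was above background on all arrays. ZAP70 stood in MT-2 cells at 9.16 with OR21, 9.63 with EPZ-6438 and 9.89 with both, against 9.12 untreated. In MT-1 cells ZAP70 stood at 9.20 with OR21, 10.11 with EPZ-6438 and 9.40 with both, against 10.37 untreated. The untreated difference was -1.25, and -0.75 with cyclic loess, and the ranges of the lines overlapped (limma adjusted p = 0.361). LAT, the membrane scaffold phosphorylated by ZAP70, differed between the lines and with treatment. In MT-1 cells LAT stood at 10.57 with OR21, 8.70 with EPZ-6438 and 11.86 with both, against 8.61 untreated. In MT-2 cells LAT stood at 7.47 with OR21, 7.13 with EPZ-6438 and 7.59 with both, against 7.82 untreated, and only the untreated array was above background. The levels of the lines did not overlap.

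LCP2, the adaptor SLP-76, stood in MT-2 cells at 10.93 with OR21, 11.52 with EPZ-6438 and 10.70 with both, against 11.96 untreated. In MT-1 cells LCP2 stood at 10.69 with OR21, 10.16 with EPZ-6438 and 11.12 with both, against 10.29 untreated. The untreated lines differed by 1.67, while over the 4 treatments the lines overlapped (limma adjusted p = 0.132). PLCG1, the phospholipase that releases calcium, stood in MT-2 cells at 9.82 with OR21, 9.65 with EPZ-6438 and 9.25 with both, against 10.06 untreated. In MT-1 cells PLCG1 stood at 8.22 with OR21, 8.47 with EPZ-6438 and 7.63 with both, against 8.41 untreated. It was higher in MT-2 under each treatment (1.51 ± 0.15 SE, limma adjusted p = 0.000299). PRKCQ, the protein kinase C theta of T cells, stood above background only in MT-2 cells given both agents, at 8.10, with 7.17 with OR21, 7.08 with EPZ-6438 and 6.28 untreated. In MT-1 cells PRKCQ stood at 5.51 with OR21, 6.10 with EPZ-6438 and 5.89 with both, against 5.59 untreated, all under background.

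The phosphatases and VAV1 and FYN follow. PTPRC (CD45), the phosphatase that primes Src kinases, stood in MT-2 cells at 6.71 with OR21, 6.15 with EPZ-6438 and 5.57 with both, against 6.24 untreated, never above background. In MT-1 cells PTPRC stood at 10.70 with OR21, 10.92 with EPZ-6438 and 11.34 with both, against 10.62 untreated, and the untreated difference was -2.81 or lower. UBASH3A, a suppressor of T cell receptor signalling, was above background only in MT-2, at 10.15 with OR21, 9.28 with EPZ-6438 and 10.57 with both, against 9.37 untreated. In MT-1 cells UBASH3A stood at 5.44 with OR21, 5.94 with EPZ-6438 and 5.20 with both, against 5.58 untreated (untreated difference at least 1.92). The Src kinase FYN lay between 7.40 and 8.35 in MT-2 and between 7.61 and 8.13 in MT-1. VAV1 lay between 7.48 and 8.95 in MT-2 and between 7.22 and 7.83 in MT-1, and neither FYN nor VAV1 was called between the lines (limma adjusted p = 0.469 and 0.179). FYN was above background on 6 arrays and VAV1 on 7, so these tests rest in part on levels not measured.

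All 7 transcription factors measured were above background on at least 1 array. TOX, a nuclear factor of thymocyte development and exhausted T cells, stood in MT-2 cells at 15.48 with OR21, 15.59 with EPZ-6438 and 15.73 with both, against 15.48 untreated. In MT-1 cells TOX stood at 6.37 with OR21, 4.79 with EPZ-6438 and 8.85 with both, against 5.46 untreated, and only the level with both agents was above background. The untreated difference was at least 8.02. GATA3, the factor of helper type 2 cells, stood in MT-2 cells at 5.77 with OR21, 6.33 with EPZ-6438 and 5.92 with both, against 5.68 untreated, under background. In MT-1 cells GATA3 stood at 8.68 with OR21, 8.67 with EPZ-6438 and 8.74 with both, against 8.68 untreated, nearly level over the treatments (untreated difference -0.87 or lower).

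LEF1, a partner of beta-catenin in T cell development, was above background in both lines and lower in MT-2. LEF1 stood in MT-2 cells at 9.82 with OR21, 10.77 with EPZ-6438 and 11.08 with both, against 9.84 untreated. In MT-1 cells LEF1 stood at 12.95 with OR21, 12.56 with EPZ-6438 and 14.32 with both, against 12.28 untreated. No MT-2 level reached the lowest of MT-1 (-2.65 ± 0.27 SE, limma adjusted p = 0.000324). RUNX1, a factor of blood cell development, stood in MT-2 cells at 13.03 with OR21, 13.38 with EPZ-6438 and 13.40 with both, against 13.53 untreated. In MT-1 cells RUNX1 stood at 11.59 with OR21, 11.80 with EPZ-6438 and 12.38 with both, against 11.48 untreated. Every MT-2 level was above every MT-1 level (1.52 ± 0.2 SE, limma adjusted p = 0.000874). ETS1, an activator of many T cell genes, stood in MT-2 cells at 12.57 with OR21, 13.23 with EPZ-6438 and 12.16 with both, against 13.46 untreated. In MT-1 cells ETS1 stood at 11.79 with OR21, 12.25 with EPZ-6438 and 11.55 with both, against 12.08 untreated. MT-2 was the higher line under each treatment, though the ranges overlapped (0.94 ± 0.17 SE, limma adjusted p = 0.00385). IKZF1 (Ikaros), a lymphoid regulator, stood in MT-2 cells at 11.12 with OR21, 11.66 with EPZ-6438 and 10.74 with both, against 11.54 untreated. In MT-1 cells IKZF1 stood at 12.12 with OR21, 12.93 with EPZ-6438 and 11.62 with both, against 12.65 untreated. MT-2 was the lower line under each treatment, though the ranges overlapped (-1.06 ± 0.14 SE, limma adjusted p = 0.000982). RUNX3, the factor of cytotoxic T cells, stood in MT-2 cells at 11.07 with OR21, 11.57 with EPZ-6438 and 11.73 with both, against 11.77 untreated. In MT-1 cells RUNX3 stood at 11.36 with OR21, 10.90 with EPZ-6438 and 11.85 with both, against 10.74 untreated. The ranges overlapped and RUNX3 was not called (limma adjusted p = 0.304).

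**Figure D2:**
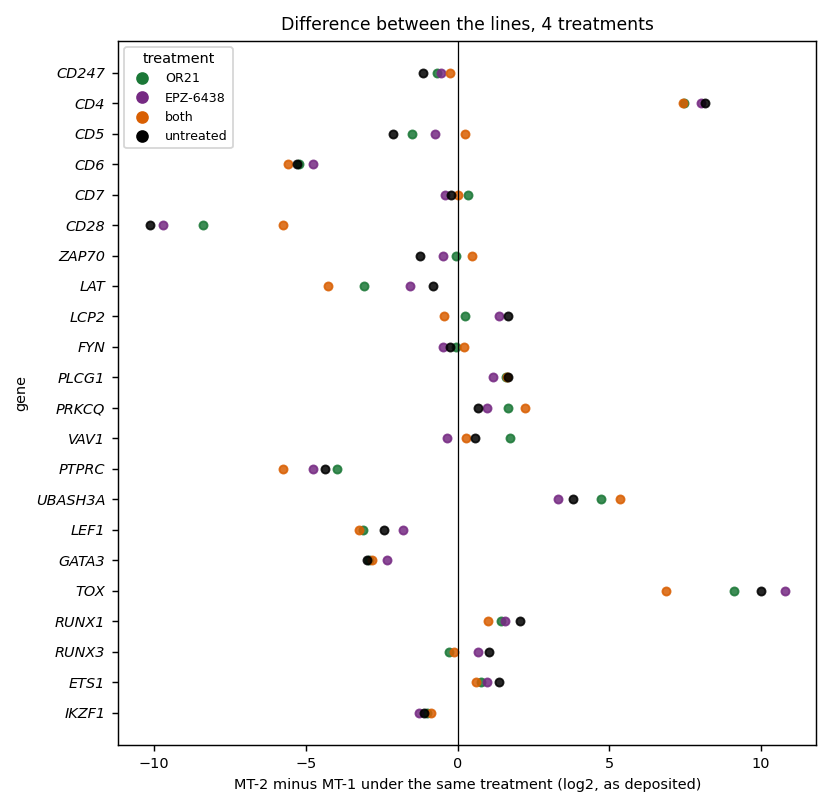
Difference between the lines, MT-2 minus MT-1, for each of the 22 members above background on at least 1 array (rows), with 1 point per treatment on the log2 scale as deposited, levels under background included. CD4, TOX and UBASH3A lie right of 0 and CD28, CD6, PTPRC and GATA3 left of it under all 4 treatments, and the point of the combination lies nearest 0 for CD28 and TOX.

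The combination of both agents was set against untreated cells of the same line. In MT-1 cells the costimulatory receptor CD28 (-4.08) and the zeta chain CD247 (-2.16) were lower, while LAT (3.24), LEF1 (2.04), TOX (at least 1.39) and RUNX3 (1.11) were higher. Counting levels under background at their bound, 4 members were higher by 1 or more and 3 were lower, against 6.35% and 7.99% of all 12942 probe sets. As deposited, 10 of 24 members differed by 1 or more either way, against 20.9% of all, and the median change was 0.27 over members and -0.05 over all probe sets. Among the 10 were CD3E, CD4 and ICOS, under background on both arrays. CD3E and ICOS passed the filter only through the MT-1 array with both agents, so the 10 support nothing on their own. In MT-2 cells 3 members were higher and 3 lower, against 2.47% and 1.26% of all probe sets. As deposited, 7 of 24 members differed in MT-2, against 7% of all, with medians of -0.06 over members and -0.02 over all.

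CD28 differed by -4.08 between MT-1 cells given both agents and untreated MT-1 cells. With OR21 alone the difference was -1.38 and with EPZ-6438 alone -0.44. The level with both agents, 8.72, was still above background, and it differed from the OR21 level by -2.70 and from the EPZ-6438 level by -3.64. Adding up the changes of the single agents gives -1.81, so the combination went beyond this sum by -2.27 (an excess of the combination on the log2 scale). In MT-2 cells CD28 was under background on all arrays and no difference can be given.

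CD247 was lower with both agents in both lines, with a difference of -2.16 for MT-1 cells and -1.25 for MT-2 cells. OR21 gave -1.09 (MT-1) and -0.62 (MT-2), and EPZ-6438 gave -0.43 (MT-1) and 0.18 (MT-2). The combination array was the lowest of the 4 in each line. Across the lines limma gave -1.71 ± 0.26 SE (n = 2 lines, adjusted p = 0.129), which was not called.

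LAT differed by 3.24 in MT-1 cells given both agents, by 1.96 with OR21 and by 0.08 with EPZ-6438. Its excess over the sum of the single agents was 1.20. In MT-2 cells the 3 treated levels of LAT were under background (-0.18 or lower with both agents). LEF1 was higher with both agents in both lines (2.04 in MT-1, 1.24 in MT-2). OR21 gave LEF1 differences of 0.67 (MT-1) and -0.02 (MT-2), and EPZ-6438 gave 0.29 (MT-1) and 0.93 (MT-2). The excess of LEF1 was 1.09 for MT-1 cells and 0.34 for MT-2 cells.

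With both agents TOX in MT-1 cells exceeded the untreated background by at least 1.39, and with either agent alone it was not above background there. In MT-2 cells TOX, already high, differed by 0.26 with both agents. The RUNX3 difference was 1.11 for MT-1 cells and -0.05 for MT-2 cells, that of RUNX1 0.90 (MT-1) and -0.13 (MT-2). IKZF1 (-1.03 in MT-1, -0.79 in MT-2) and ETS1 (-0.54 in MT-1, -1.30 in MT-2) were lower in both lines. Cyclic loess gave -0.84 for IKZF1 in MT-1 cells and centring of arrays 0.87 for RUNX3, both short of 1.

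**Figure D3:**
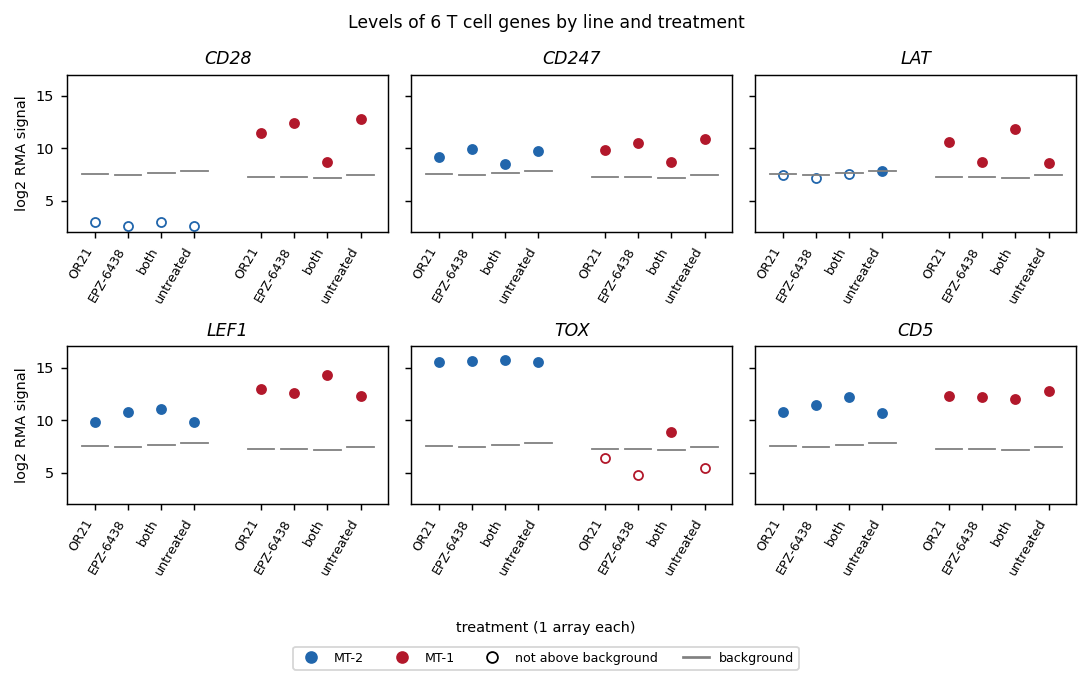
Levels of CD28, CD247, LAT, LEF1, TOX and CD5 (log2 RMA signal) with OR21, EPZ-6438, both agents and untreated, in MT-2 (blue) and MT-1 (red), 1 array each, with open circles for levels not above background and grey bars for the background of the array. In MT-1 the array with both agents is the lowest of the 4 for CD28 (8.72) and CD247 (8.72) and the highest for LAT (11.86), LEF1 (14.32) and TOX (8.85).

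In MT-2 cells CD5 differed by 1.58 with both agents, by 0.79 with EPZ-6438 and by 0.14 with OR21. UBASH3A differed there by 1.20 with both agents, by 0.78 with OR21 and by -0.10 with EPZ-6438. LCP2 differed by -1.26 with both agents and by -1.03 with OR21. CD5 and UBASH3A were thus higher and the adaptor LCP2 lower in MT-2, while CD5 was lower in MT-1 with both agents (-0.79). With both agents ZAP70 was higher in MT-2 (0.77) and lower in MT-1 (-0.97). PLCG1 was lower in both lines (-0.81 in MT-2, -0.79 in MT-1). PRKCQ came above background in MT-2 only with both agents (at least 0.30).

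Across the lines, limma called 0 of 24 members and 0 of 12942 probe sets for the combination. At an unadjusted p under 0.05 it had 9 of 24 members, against 19.2% of all probe sets. These were CD247, LEF1, IKZF1, ETS1, PLCG1, CD4, ICOS, FYN and PRKCQ, with adjusted p from 0.129 to 0.232 in limma and n = 2 lines. CD247, IKZF1, ETS1 and PLCG1 were the lower ones. Of the 9, ICOS was above background on no array, CD4 only in MT-2, PRKCQ on 1 array and FYN on 6. FYN was not above it in untreated MT-2. The values of these members thus compare levels that were in part not measured. The spread in this test is the difference between the lines in their response, doses included. Without the MT-2 array of the combination, 1 array is left in this contrast, which the model fits exactly, and it is assumed to vary like the other groups. The estimate was then -1.98 for CD247, -3.71 for CD28 and 3.37 for TOX, given with no p because it rests on this 1 array. These members were chosen by the p of that same fit, so their choice rests on this 1 array too and supports nothing. CD28 was above background on no MT-2 array, and TOX in MT-1 only with both agents, so their values compare levels in part not measured.

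OR21 alone was set against untreated cells of the same line. In MT-1 cells LAT was higher by 1.96, while CD28 (-1.38), ZAP70 (-1.17) and CD247 (-1.09) were lower. That is 1 member higher and 3 lower with levels under background at their bound, against 2.11% and 2.76% of all probe sets. As deposited, 5 of 24 members differed by 1 or more either way, against 9.09% of all. Among the 5 was CD3E, under background on both arrays and past the filter only through the MT-1 array with both agents. The CD247 value was -0.95 with cyclic loess. In MT-2 cells LCP2 (-1.03, and -0.92 with cyclic loess) was the only member to differ by 1 or more, with 0 members higher and 1 lower, against 0.672% and 0.904% of all probe sets (1 of 24 as deposited, against 4.05%). OR21 gave ETS1 differences of -0.89 (MT-2) and -0.29 (MT-1), and IKZF1 differences of -0.41 (MT-2) and -0.53 (MT-1). Across the lines limma called 0 members and had 1 at an unadjusted p under 0.05, CD247 (-0.86 ± 0.26 SE, n = 2 lines, adjusted p = 0.57), against 8.34% of all probe sets.

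With EPZ-6438 alone, no member differed by 1 or more above background in either line. The count was 0 higher and 0 lower in MT-1, against 0.232% and 0.131% of all probe sets, and 0 higher and 0 lower in MT-2, against 0.27% and 0.108%. As deposited, 1 of 24 members differed in MT-1, against 1.32% of all, and 0 in MT-2, against 1.25%. The 1 was ICOS, at 6.45 with EPZ-6438 against 5.06 untreated, both under background. Among levels above background in MT-2, LEF1 (0.93) and CD5 (0.79) had the most positive values and VAV1 (-0.92) the most negative. In MT-1 FYN (0.43) and CD5 (-0.59) marked the ends of the range above background. Across the lines limma called 0 members and had 1 at an unadjusted p under 0.05, ICOS (adjusted p = 1), against 2.2% of all probe sets. All 3 treatment comparisons of a line share its untreated array, so their values are given side by side and no agreement between them is counted.

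**Figure D4:**
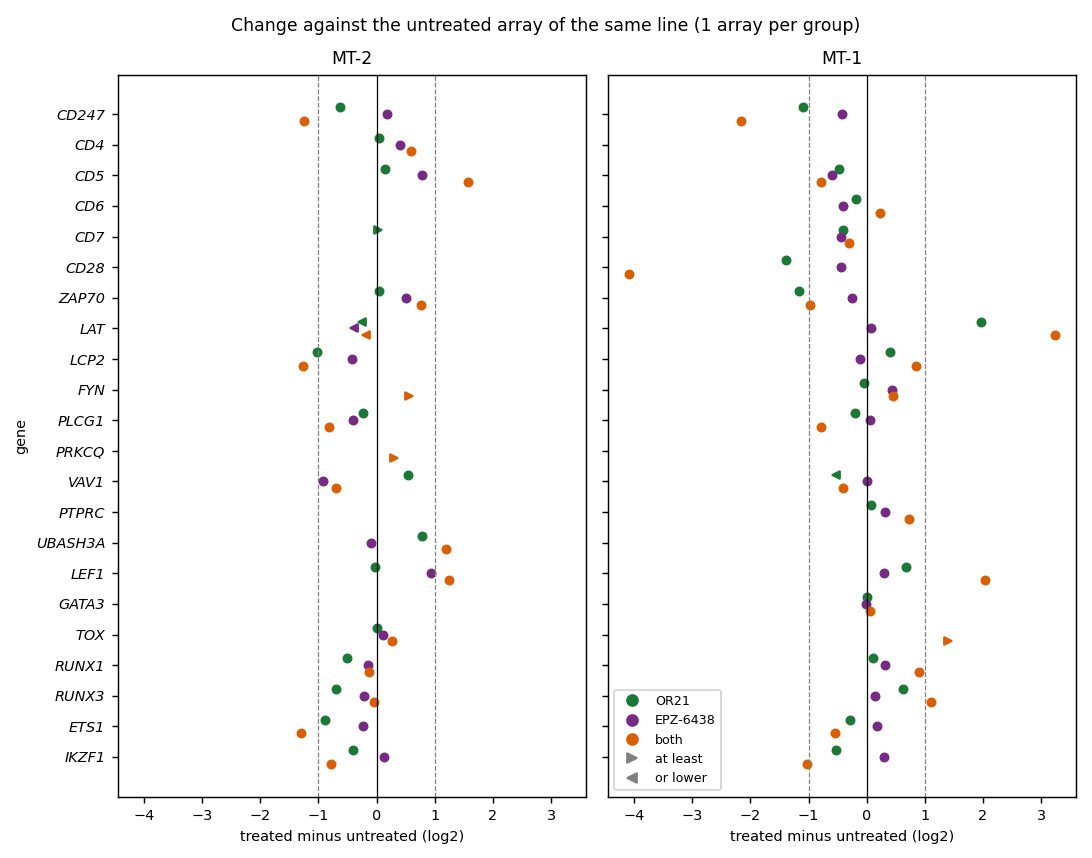
Change of each of the 22 members above background on at least 1 array (rows) against the untreated array of the same line, on the log2 scale, with OR21 (green), EPZ-6438 (purple) and both agents (orange) in MT-2 (left) and MT-1 (right). Circles are measured differences and triangles are bounds, no marker means that neither level was above background, and dashed lines mark 1 log2 unit. In MT-1 CD28 reaches -4.08 and LAT 3.24 with both agents.

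The kinases that phosphorylate receptor tails were also read outside the list, because LCK was under background throughout. Of 10 listed Src and Syk family kinases and Fc receptor chains, 9 had a row, 7 passed the filter and 7 stood above background on at least 1 array. Like the other lists, this one was chosen with earlier results of these data known, so its counts support nothing on their own. SYK, the relative of ZAP70 used by B cells and myeloid cells, stood in MT-1 cells at 10.61 with OR21, 4.46 with EPZ-6438 and 9.76 with both, against 4.38 untreated. BLK, a Src kinase of B cells, stood in MT-1 cells at 11.08 with OR21, 6.41 with EPZ-6438 and 10.32 with both, against 6.70 untreated. Both were above background in MT-1 only on the arrays that received OR21 (SYK at least 3.15 and BLK at least 3.62 with OR21).

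LYN, a Src kinase of B and myeloid cells, was above background only in MT-2, at 12.48 with OR21, 12.48 with EPZ-6438 and 12.61 with both, against 12.38 untreated. In MT-2 SYK stood at 7.02 with OR21, 7.65 with EPZ-6438 and 7.71 with both, against 7.31 untreated. BLK stood in MT-2 at 10.34 with OR21, 10.34 with EPZ-6438 and 9.96 with both, against 11.09 untreated. Of the Src kinases, untreated MT-2 cells thus had LYN, BLK and YES1 above background, and untreated MT-1 cells had FYN and YES1. In MT-1 cells given both agents 4 of these genes were higher by 1 or more and 0 lower, against 6.35% and 7.99% of all probe sets: BLK (at least 2.87), SYK (at least 2.30), the adaptor TYROBP (1.97) and YES1 (1.07). In MT-2 cells given both agents SRC was higher (at least 1.23) and BLK lower (-1.13), against 2.47% and 1.26% of all.

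**Figure D5:**
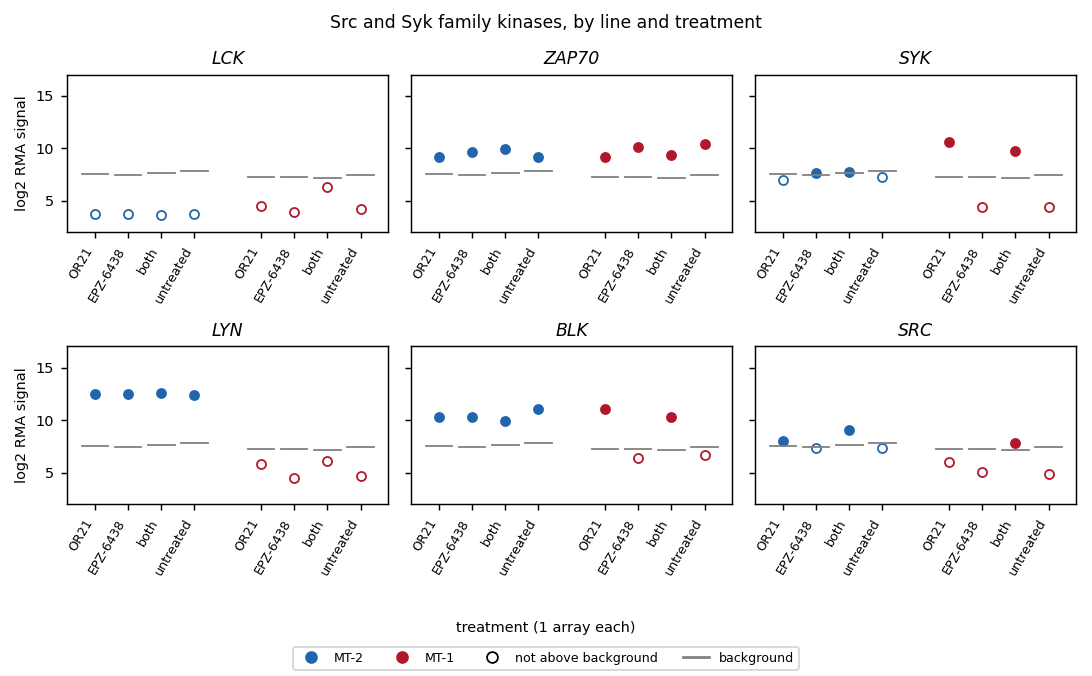
Levels of LCK, ZAP70, SYK, LYN, BLK and SRC (log2 RMA signal) in MT-2 (blue) and MT-1 (red) with OR21, EPZ-6438, both agents and untreated, 1 array each, with open circles for levels not above background and grey bars for the background. LCK is open on all 8 arrays, ZAP70 filled on all 8, and in MT-1 SYK (10.61 and 9.76) and BLK (11.08 and 10.32) are filled only with OR21 and with both agents.

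Of 34 further T cell receptor signalling genes, 31 had a row and 24 stood above background on at least 1 array. In MT-1 cells given both agents 3 of the 25 that passed the filter were higher by 1 or more and 0 lower, against 6.35% and 7.99% of all probe sets: the ubiquitin ligase CBLB (1.53), which restrains T cell activation, the phosphatase UBASH3B (1.51) and the Ras exchange factor SOS1 (1.23). With OR21 alone the actin regulator WAS (-1.17) and PAG1 (-1.03), an anchor for the inhibitory kinase CSK, were lower in MT-1 and 0 were higher, against 2.76% and 2.11% of all. In MT-2 cells given both agents SH2D2A, a T cell adaptor, was higher (1.89) and 0 were lower, against 2.47% and 1.26% of all. EPZ-6438 alone gave 0 either way in both lines. The phosphatase PTPN6 (SHP-1), which damps the cascade, stood in MT-1 cells at 5.27 with OR21, 4.06 with EPZ-6438 and 7.27 with both, against 4.16 untreated. Its level of 7.27 was above the background of its own array (7.19) and not above that of the untreated array (7.46), so no difference is given. Between the untreated lines RASGRP1 (3.56), NFATC2 (2.46), SH2D2A (at least 3.08) and SLA (at least 1.91) were higher in MT-2. The signalling protease MALT1 (-5.11 or lower), PTPN7 (-2.82), the adaptors NCK1 (-2.20), DOK2 (-1.17) and SKAP1 (-1.16 or lower) and CSK (-1.13) were lower in MT-2.

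Of 23 further surface and lineage genes, 19 had a row and 7 stood above background on at least 1 array, among them the homing receptor CCR7 on all 8 (15.95 to 16.70). In MT-1 cells given both agents 2 of the 10 that passed the filter were higher and 2 lower, against 6.35% and 7.99% of all probe sets. Of the higher ones, CD96 passed the filter only through treated MT-1 arrays, so this count supports nothing on its own. CD96 stood at 8.81 with OR21, 7.08 with EPZ-6438 and 12.52 with both, against 6.18 untreated (at least 5.06 with both). CD226, an activating receptor, stood at 7.35 with OR21, 5.90 with EPZ-6438 and 9.44 with both, against 6.38 untreated (at least 1.99 with both). The inhibitory receptor TIGIT stood at 7.26 with OR21, 8.52 with EPZ-6438 and 6.28 with both, against 9.23 untreated (-2.04 or lower with both). CD96 and CD226 were thus higher and TIGIT, which shares a ligand with them, lower in the same cells. SH2D1A (SAP), the adaptor of SLAM receptors, stood at 8.99 with OR21, 9.98 with EPZ-6438 and 7.13 with both, against 10.27 untreated (-3.08 or lower with both). In MT-2 0 of these genes differed by 1 or more above background with any treatment.

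Of 22 further transcription factors, 21 had a row and 18 stood above background on at least 1 array. In MT-1 cells given both agents 4 of the 18 that passed the filter were higher and 0 lower, against 6.35% and 7.99% of all probe sets: ID2 (5.12), an inhibitor of E proteins, the Notch target HES1 (at least 3.57), the quiescence factor KLF2 (3.12) and ID3 (at least 2.42). With OR21 alone ID2 (3.28), HES1 (at least 1.66) and KLF2 (1.45) were higher in MT-1, against 2.11% of all. KLF2 (1.30) was the 1 gene of the list that was higher there with EPZ-6438 alone, against 0.232% of all. In MT-2 the repressor BACH2 was higher with EPZ-6438 (1.31, against 0.27% of all) and with both agents (1.57, against 2.47%), and TBX21 (T-bet) was lower with both (-1.18, against 1.26%). With OR21 alone RUNX2 (-1.54) and NOTCH1 (-1.20 or lower) were lower in MT-2, against 0.904% of all.

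Markers of other cell types were read on the same arrays. The sums below add the signals of all markers with a row, levels under background included. A sum above the background of an array is therefore no sign of expression. Of the B cell markers 5 of 7 had a row, and the summed level, on the log2 scale, lay between 10.21 and 11.63 in MT-2 given a treatment (11.09 untreated) and between 8.58 and 8.64 in treated MT-1 (8.24 untreated). MS4A1, the defining surface protein CD20, was under background on all 8 arrays, PAX5 likewise, and CR2, a complement receptor, was above background on the 4 MT-2 arrays only, with 9.38 with OR21, 11.37 with EPZ-6438 and 10.82 with both, against 10.70 untreated. CD79A (6.83 to 7.83) was above background on 5 arrays and CD79B (6.69 to 7.60) on 3, with arrays of both lines among them, and both genes lay close to it. Of the NK cell markers 5 of 6 had a row, with sums between 6.95 and 7.12 in treated MT-2 (7.13 untreated) and between 10.51 and 11.85 in treated MT-1 (12.05 untreated). Only KLRC1 (NKG2A) was above background, in MT-1, at 10.45 with OR21, 11.81 with EPZ-6438 and 10.35 with both, against 12.02 untreated. Myeloid sums (6 of 7 markers) lay between 8.07 and 8.65 in MT-2 and between 8.38 and 8.59 in MT-1, with CD14 and LYZ under background on all arrays. Of these markers only MPO was above background, on the MT-1 array with both agents (7.30, with a background of 7.19). Erythroid sums (4 of 5) lay between 7.88 and 8.16 in MT-2 and between 7.86 and 10.16 in MT-1, where HBA1 reached 10.00 with both agents. HBB, ALAS2 and EPOR were under background on all 8 arrays. The part of these genes in the results above was not tested. Of 8 reference genes 0 differed by 1 or more with any treatment in either line. Between the untreated lines 1 of the 8 did, GUSB, by -1.37 (MT-2 minus MT-1).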

How the data were processed

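The arrays are 1-colour Affymetrix arrays hybridised with biotin-labelled cDNA. The deposited table holds log2 values for 24351 entries on 8 arrays, summarised by the authors with RMA, per the submitters' processing notes. The sources used here name neither its version nor an array build. Base 2 follows from RMA, and values from 2.14 to 18.91 pass what a 16-bit scanner gives, so a rescaling may have followed. The 2903 control entries were left out of 21448 transcript probe sets. Genes were named from the platform annotation (17709 rows with 1 symbol, 3739 with none, 0 with several).

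Probe sets whose highest value over the 8 arrays reached the table median, 6.573, were tested (12942, among them 24 of the 32 members). The members not passing were CD3D, CD3G, CD8A, CD2, CTLA4, LCK, PTPN22 and THEMIS. Within a line a difference of 1 log2 unit was counted, with no test. limma 3.58.1 (R 4.3.3) fitted cell line and treatment with 3 residual degrees of freedom, with Benjamini-Hochberg adjustment. The fit was first run on simulated data with the same treatment shift in both lines. Such data lack a difference in response between the lines, so that run says nothing on the power of the treatment tests here. Members and gene lists were chosen with earlier results of these data known. Values on all arrays are given for members that stood above background on at least 1 array and differed by 1 or more in a comparison. From the other lists, up to 5 genes per list and treatment comparison that did so are named by size. PTPN6, CCR7 and LYN, and the signalling genes that separated the untreated lines, fall outside this rule and were chosen after their values were seen. Precision is limited by the number of arrays.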

Additional observations from a re-analysis of the deposited data

Results flagged for a closer look

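Some members moved in opposite directions in the lines by 0.5 log2 units or more with all 4 levels above background. The difference between the lines was not tested, since each value rests on 1 treated and 1 untreated array, and the doses differed. With both agents CD5, a negative regulator of receptor signalling, differed by 1.58 in MT-2 and -0.79 in MT-1, and with EPZ-6438 alone by 0.79 in MT-2 and -0.59 in MT-1. ZAP70 differed by 0.77 in MT-2 and -0.97 in MT-1 with both agents, while its adaptor LCP2 differed by -1.26 in MT-2 and 0.84 in MT-1. With OR21 alone RUNX3 differed by -0.70 in MT-2 and 0.62 in MT-1. With both agents, then, ZAP70 and LCP2 moved in opposite ways within each line.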

How the results depend on the processing

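The counts of members past 1 log2 unit as deposited were recomputed with arrays centred on their medians, cyclic loess, other filters, levels under background set to it, all probe sets of a gene and a threshold of 1.5. For OR21 in MT-2 the count of 1 was 0 with cyclic loess and 0 at 1.5. For both agents in MT-2 the 7 became 2 at 1.5, and for OR21 in MT-1 the 5 became 1 at 1.5. For EPZ-6438 in MT-1 the 1 (ICOS) became 0 at 1.5, 0 with levels under background set to it and 0 where the highest level had to exceed background. The excess of the combination in MT-2 passed 1 in 1 member, PTPRC, under background throughout. That count was 3 with no filter and 0 with levels set to background. Leaving out single arrays, limma called 15 to 18 members between the lines, against 16 with all arrays. For each treatment it called 0 members in every fit that kept both arrays of that treatment. A fit without 1 of them leaves 1 array in the contrast, and no count is given for it.

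Of 34 member differences of 1 or more, 0 reversed with centring or cyclic loess, and 8 of 68 values fell short of 1. Besides those in the text, these were, with loess, CD247 (-0.65), ZAP70 (-0.75) and IKZF1 (-0.58) between the untreated lines, and RUNX3 there with centring (0.92). The median of all probe sets between the untreated lines was -0.29 as deposited, -0.41 with centring and 0.02 with loess, and for both agents in MT-1 -0.05, -0.29 and 0.08. Between the lines, limma with loess called 9 of 24 members higher in MT-2 and 8 lower, in place of 7 and 9. Over all probe sets it called 3915 of 12967 higher and 3954 lower, in place of 2939 and 5267 of 12942. With a trend in the variance limma called 9 probe sets higher and 1 lower for the combination, 0 of them members. With background at the 99th percentile of negative controls, an alternative chosen after seeing the data, 14 members differed between the untreated lines in place of 16, and 6 in place of 7 for both agents in MT-1. The labels carry no replicate numbers, and arrays were paired only by cell line, a term of the limma fit.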

Other observations

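Partners of the receptors described above were read after their values were seen, as a description with no test. Among receptors and ligands of the nectin family, PVRIG, an inhibitory receptor, moved the same way as TIGIT in MT-1, with 8.56 with OR21, 9.68 with EPZ-6438 and 8.43 with both agents, against 10.21 untreated. It was under background in MT-2. PVR, the ligand that TIGIT, CD96 and CD226 share, was above background only in MT-2, at 8.91 with OR21, 9.12 with EPZ-6438 and 9.27 with both, against 8.83 untreated. NECTIN1 was higher in MT-2 by 1.10 with OR21 and 1.08 with both agents.

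In the SLAM family, CD48 was above background only in MT-1, between 12.44 and 13.43, and SLAMF1 only in MT-2. SLAMF1 stood there at 9.28 with OR21, 9.20 with EPZ-6438 and 10.51 with both, against 8.11 untreated. SLAMF1 was higher by 2.40 with both agents in MT-2, the line in which SH2D1A, its adaptor, differed by -0.64.

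Transcripts of CD28 ligands were also measured. CD80 was above background only in MT-2, the line without CD28 above background, at 12.14 with OR21, 12.71 with EPZ-6438 and 12.63 with both, against 11.85 untreated. CD86 was above background in both lines and was higher with both agents by 0.59 (MT-2) and 1.10 (MT-1). The checkpoint ligand CD274 (PD-L1) was above background only in MT-2, where it differed by 1.06 with OR21, 0.16 with EPZ-6438 and 1.70 with both agents.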
